A study of Mus musculus with 14 samples.

Results

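Mouse intestinal organoids held a small set of cells that carried a 6-gene injury signature without having met the compound Isx-9. Members were cells with at least 2 UMIs (unique molecular identifiers, each marking 1 captured RNA molecule) of at least 3 of Ly6d, Sprr1a, Anxa1, Plaur, F3 and Areg. The rule was applied to cells in which 500 or more genes and 1000 or more UMIs were seen and no more than 20% of UMIs were mitochondrial. It found 663 members among 27324 such cells in 3 libraries, of 37340 in the series' 4 single-cell libraries. The rule reads the same counts that are described below, so every contrast of members with other cells is a description and carries no test.

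The organoids were whole cultures of mouse intestinal epithelium grown in ENR medium, which contains EGF, a growth factor whose receptor is also the target of the rule gene Areg. The 3 libraries were DMSO-treated Chgb-mCherry knock-in reporter organoids, which received 0.05% DMSO for 6 days from day 2 after passaging, untreated Chgb-mCherry reporter organoids, and untreated wild-type organoids. A 4th library of the same reporter received 25 µM Isx-9 for 6 days and serves here only for comparison. In the reporter, mCherry is knocked into Chgb, a granule protein gene of enteroendocrine cells; the labels give no age or strain of the mice. Each condition had 1 library, so differences between libraries have no replicate check, and intervals cover counting error only.

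After injury the intestinal epithelium can leave its usual stem cell programme and pass through a wound-associated state that resembles the fetal gut. In mice this state is known for Ly6a (Sca-1), annexins and keratins, for YAP and AP-1 activity, and for ligands of the EGF receptor. The 6 rule genes cover several of its functions. Areg encodes amphiregulin, a ligand of the EGF receptor. Plaur encodes the urokinase receptor, which holds a protease activator at the cell surface, and F3 encodes tissue factor, the trigger of blood coagulation. Anxa1 encodes an annexin that limits inflammation, Sprr1a a small proline-rich protein of cornified envelopes, and Ly6d a GPI-anchored surface protein of the Ly6 family.

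The 3 libraries held 8969, 9610 and 8745 filtered cells, in the order DMSO reporter, untreated reporter and wild type. Members had a median of 15770, 15075 and 16852 UMIs per cell, against 13351, 12601 and 14923 UMIs in other cells. Their median mitochondrial share was 5.58%, 5.05% and 4.84%, against 6.7%, 6.59% and 6.23% in other cells. Members were thus the deeper cells, a gap that a rule on UMI numbers can itself produce. Any pair of these 3 libraries shared 13 to 22 barcodes among filtered cells, and no barcode was shared among members. The doublet caller Scrublet marked 0, 0 and 1 cells in the 3 libraries, so few that the caller was taken not to have worked there. Members made up 17 of 982, 12 of 975 and 58 of 883 cells in the top 10% of Scrublet scores, so that 10.8%, 8.89% and 15.7% of members lay there, against 11%, 10.2% and 9.85% of other cells.

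Members formed 1.76% of the DMSO reporter library (158 cells, 95% exact binomial interval 1.5% to 2.06%). They formed 1.4% of the untreated reporter library (135 cells, 1.18% to 1.66%) and 4.23% of the wild-type library (370 cells, 3.82% to 4.67%). The intervals of the reporter libraries overlapped, and that of the wild-type library lay above both. After each cell was thinned to 5000 UMIs, which left out shallower cells, the shares were 0.949% of 7904, 0.589% of 8495 and 2.51% of 7622 cells. The order was the same at that fixed depth. Genotype, culture and library cannot be told apart with 1 library each. As a rough guide to free RNA, cells with at least 2 UMIs of 3 enteroendocrine markers met the injury rule in 0.327%, 0.153% and 1.46% of cases, at median depths of 8191, 7862 and 8777 UMIs. This value was also highest in the wild-type library, and the member shares lay above it in each library. It depended on the type chosen. The same measure gave 0.319%, 0.307% and 1.95% with tuft markers, 1.5%, 1.14% and 3.6% with goblet markers, and 1.74%, 1.02% and 3.98% with Paneth markers. The goblet and Paneth values lay near the member shares. The goblet rule was met by 2668, 2628 and 3445 cells, a set so wide that its value would tend toward the member share anyway. Such overlaps cannot tell free RNA from doublets or from cells that express both sets of genes. The part of free RNA in the member shares was not tested.

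**Figure D1:**
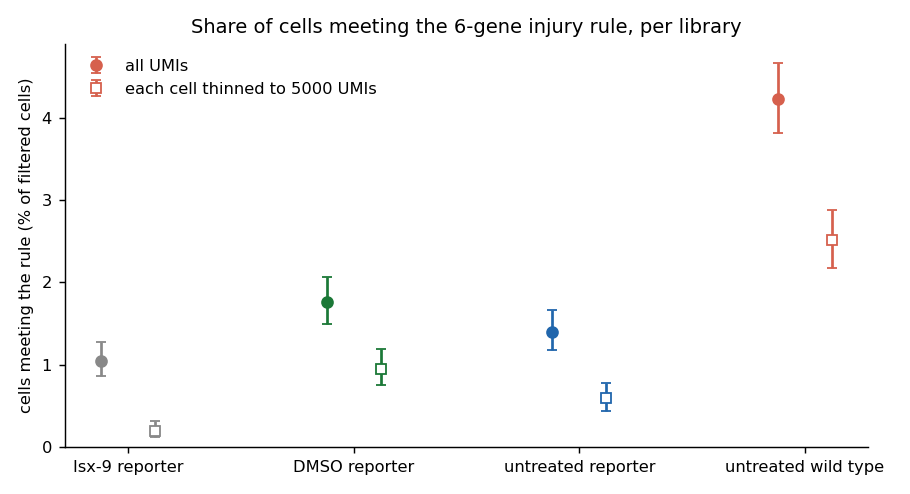
Percent of filtered cells that met the 6-gene rule in each library, with all UMIs (filled circles) and after thinning each cell to 5000 UMIs (open squares). Bars are 95% exact binomial intervals for counting error, and the wild-type library stands above the others at both depths, at 4.23% and 2.51%.

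The name Ly6d Sprr1a describes only some of the members. At least 2 UMIs of Ly6d were found in 19.6%, 18.5% and 37.6% of members of the DMSO reporter, untreated reporter and wild-type libraries, and the median member had 0 UMIs of it. Sprr1a reached 2 UMIs in 66.5%, 63.7% and 67.6% of members. Areg did so in 95.6%, 97.8% and 91.9%, F3 in 81.6%, 79.3% and 85.7%, Plaur in 74.1%, 71.9% and 57.8%, and Anxa1 in 41.8%, 39.3% and 61.1%. The members are therefore better described as Areg F3 cells, of which a minority carried Ly6d. The commonest combination was Plaur, F3 and Areg without the other 3 genes, in 21.5%, 24.4% and 13.2% of members. All 6 genes were present in 16, 7 and 39 members.

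**Figure D2:**
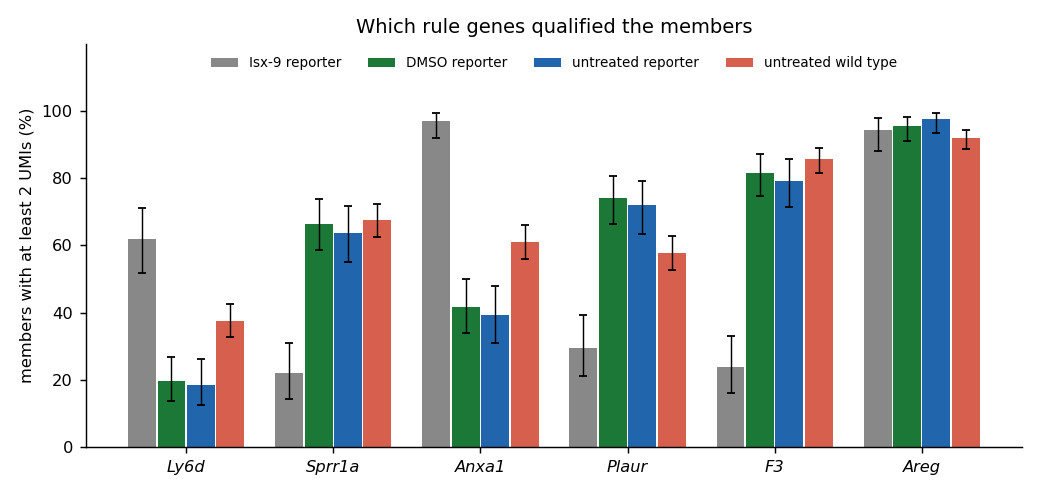
Percent of members with at least 2 UMIs of each rule gene, per library, with 95% exact binomial intervals. Areg qualified over 90% of members in each library, while Ly6d did so in 61.9% of members of the Isx-9 library and in 18.5% to 37.6% of members of the other libraries.

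Ly6d was nonetheless the rule gene most concentrated in members. It stood at 222, 301 and 544 CPM (UMIs summed over cells and scaled to a total of 1000000) in members of the DMSO reporter, untreated reporter and wild-type libraries, against 0.482, 0.884 and 2.91 CPM in other cells. Members held 90.9%, 85.2% and 90.6% of each library's Ly6d UMIs. Areg was the most abundant and the least exclusive rule gene, at 1157, 1222 and 1002 CPM in members, against 50.4, 43.1 and 69.1 CPM in other cells. Members held 33.2%, 32.5% and 42.9% of its UMIs. These differences follow from the rule and say nothing beyond it.

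Promoters of 3 rule genes are shown because they hold letters that AP-1 transcription factors, dimers of Fos and Jun proteins, are known to bind. The windows are the 250 bases before the annotated start on the gene's own strand, 5′ to 3′, from RefSeq (GRCm38.p6), with capitals marking each match to TGANTCA, a motif that reads the same on both strands.
Sprr1a, chr3:92485882-92486131, minus strand: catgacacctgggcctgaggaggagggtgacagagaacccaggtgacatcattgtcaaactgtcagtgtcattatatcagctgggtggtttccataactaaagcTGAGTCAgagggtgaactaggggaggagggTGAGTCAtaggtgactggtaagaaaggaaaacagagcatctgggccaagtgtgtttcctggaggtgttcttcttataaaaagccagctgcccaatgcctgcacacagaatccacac
F3, chr3:121723287-121723536, plus strand: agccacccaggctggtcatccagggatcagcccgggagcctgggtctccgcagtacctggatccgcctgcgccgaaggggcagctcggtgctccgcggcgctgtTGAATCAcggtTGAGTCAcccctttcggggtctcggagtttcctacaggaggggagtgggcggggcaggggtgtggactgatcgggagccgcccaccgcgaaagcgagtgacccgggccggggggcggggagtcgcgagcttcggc
Plaur, chr7:24462233-24462482, plus strand: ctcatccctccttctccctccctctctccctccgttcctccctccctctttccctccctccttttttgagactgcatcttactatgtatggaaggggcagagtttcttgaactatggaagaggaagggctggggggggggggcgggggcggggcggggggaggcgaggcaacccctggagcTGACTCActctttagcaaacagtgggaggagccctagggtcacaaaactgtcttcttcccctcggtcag

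Sprr1a and F3 held 2 matches each in these windows and Plaur held 1, and the windows of Anxa1 and Areg held none. Ly6d was matched to no window. Of the 27025 genes with a promoter in the table, 7.82% held the motif in at least 1 window of this length. It was found for 76 of the 511 genes higher in members that had a window (14.9%), for 30 of 487 lower genes (6.16%), and for 435 of the 7857 genes compared (5.54%). These are matches of letters, and no binding was measured.

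Outside the rule genes, members were set beside the other cells of their own library gene by gene. A gene was compared if it had at least 10 UMIs in members, or would be expected to have them from its level in other cells, in each of the 3 libraries. A gene was called if its CPM differed at least 2-fold in the same direction in all 3. Of 9911 genes compared, 671 (6.77%) were higher in members and 623 (6.29%) were lower. The median gene had a log2 ratio of -0.20, -0.23 and -0.19 in the DMSO reporter, untreated reporter and wild-type libraries, so the typical gene was slightly lower in members. With mitochondrial and ribosomal protein genes left out of the totals, 554 genes were higher and 920 lower, and the medians were -0.36, -0.39 and -0.33. A gene nearly absent from other cells could enter the comparison only by being high in members, so the counts for lists of such genes describe these cells and support nothing further.

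The genes with the highest ratios outside the rule included Ly6 family genes, annexins and secreted factors. Ly6a, the mouse stem cell antigen Sca-1, stood at 508, 496 and 742 CPM in members of the DMSO reporter, untreated reporter and wild-type libraries, against 4.07, 5.87 and 21.2 CPM in other cells. Its ratio was 125 (113 to 138), 84.5 (76.9 to 92.9) and 34.9 (33.3 to 36.6), and 48.1%, 51.9% and 69.2% of members had a UMI of it, against 2.46%, 2.67% and 9.13% of other cells. Il1rn, the secreted antagonist of the interleukin-1 receptor, stood at 132, 126 and 110 CPM in members and 1.09, 0.962 and 2.26 CPM in other cells. Psca, a GPI-anchored relative of Ly6d, stood at 53.8, 49.3 and 34.3 CPM in members and 0.603, 0.352 and 0.201 CPM in other cells. Both were far higher in members than in other cells of each library.

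Tm4sf1, a tetraspanin-like membrane protein, ranked first by the smallest of the 3 libraries' ratios, and its UMIs came from few cells. It had 56, 60.9 and 31.4 CPM in members and 0.0884, 0.243 and 0.124 CPM in other cells, yet only 8.86%, 7.41% and 5.41% of members had a UMI of it. One member in each library held 37.7%, 39.4% and 39% of its UMIs, and without those members the log2 ratio was 8.63, 7.27 and 7.28. Other genes among the 20 highest were Msln (mesothelin), Pgf (placental growth factor), Aldh1a3 (a retinoic acid-forming enzyme), Anxa8, Anxa10, Calcb, Cysrt1, Tnip3, Mrc1, Pmp22, Tpm2, Trex2, Gml, Wincr1, Ly6c1 and Ly6g. Ly6a, Ly6c1 and Ly6g are close relatives whose reads the counting could split, so their separate levels are uncertain.

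**Figure D3:**
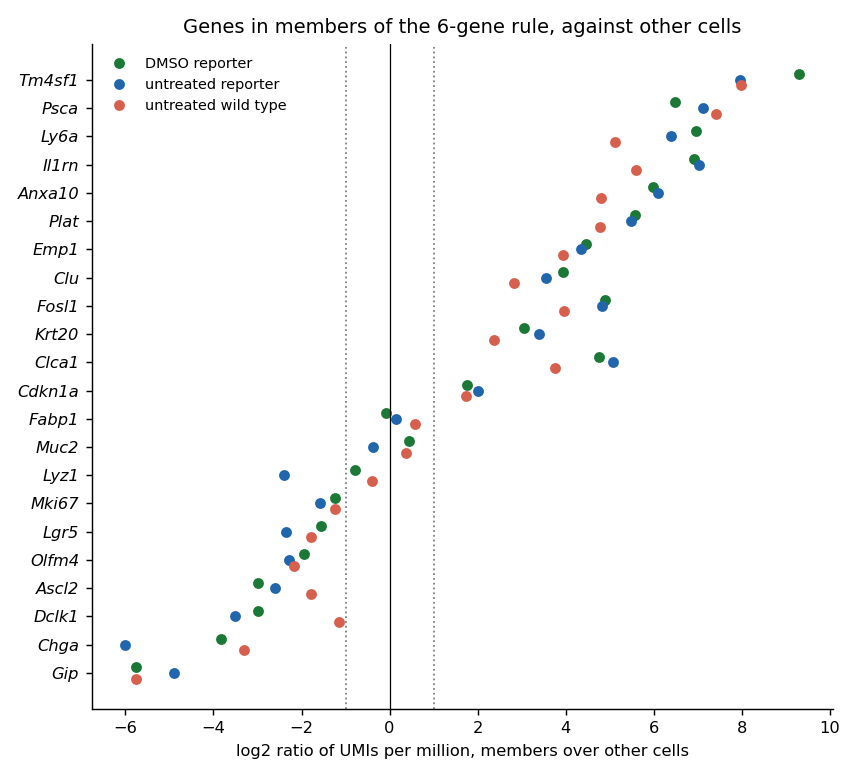
Log2 ratio of CPM in members over other cells of the same library for 22 named genes, with dotted lines at a 2-fold difference. Regenerative genes such as Ly6a and Plat lie far to the right in each library, Fabp1 and Muc2 lie between the lines, and stem, tuft and enteroendocrine genes lie to the left.

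Most genes of the fetal and regenerative list that could be compared were higher. Of its 26 genes 16 were compared, of which 14 were higher and none was lower, beside 6.77% of all genes compared. Another 5 had 0 UMIs in members, but only 24 of the 26 were listed for any of the 3 libraries. The genes compared had median log2 ratios of 3.94, 3.74 and 3.04. The whole list's summed level without rule genes was 11965, 11791 and 12618 CPM in members of the DMSO reporter, untreated reporter and wild-type libraries, against 1554, 1637 and 2040 CPM in other cells. Clu, the clusterin of revival stem cells, stood at 96.1, 62.7 and 56.3 CPM in members and 6.29, 5.31 and 7.99 CPM in other cells. Single members ranged widely around this level: the median member had 88, 88.1 and 108 UMIs of the list per 10000 UMIs, and the 10th and 90th percentiles in the DMSO reporter library were 36 and 219. The median other cell had 12.5, 12.9 and 15.4.

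The cornified and squamous list, whose genes build the tough outer layers of skin and stratified epithelia, had 11 of 13 genes higher and none lower. The share of higher genes among all genes compared was 6.77%. Its median log2 ratios were 2.35, 2.76 and 2.46. Emp1, an epithelial membrane protein, stood at 288, 245 and 333 CPM in members and 13, 12.1 and 21.7 CPM in other cells. Cldn4, a tight junction claudin, stood at 288, 241 and 233 CPM in members and 16.8, 12.9 and 22.1 CPM in other cells. Both were present at similar levels in the members of all 3 libraries. Of the 36 genes of the list, 10 had 0 UMIs in members, among them Krt13, Krt14, Krt17, Sprr3 and S100a8. Only 27 of the 36 were listed for any of the 3 libraries, so most of these zeros hold for other cells too and do not set members apart. Others that had too few UMIs to be compared, such as Krt5 and Krt16, were not absent from members. The Sprr2 genes of this list are near-identical copies, and their separate values are uncertain.

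Genes of cell-surface proteolysis were high beside Plaur and F3. In the plasminogen and coagulation list 5 of 8 genes were higher and none lower, beside 6.77% higher of all genes compared. Its median log2 ratios were 2.18, 2.27 and 1.77. Plat, tissue plasminogen activator, stood at 102, 96.4 and 82.3 CPM in members, against 2.13, 2.15 and 2.98 CPM in other cells, ratios of 47.9 (40.3 to 56.9), 44.8 (37.2 to 53.8) and 27.6 (24.2 to 31.5). Anxa2 and S100a10, which pair at the membrane as a docking site for plasminogen, reached 2262, 2247 and 2202 CPM and 2078, 2144 and 2048 CPM in members, against 192, 195 and 273 CPM and 362, 383 and 476 CPM in other cells. Both stood several times above other cells in each library. Plasminogen itself (Plg), Serpinb2 and Thbd had 0 UMIs in members. Only 14 of the list's 17 genes were listed for any of the 3 libraries, so some zeros of this list hold for other cells too.

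Ligands and feedback genes of the EGF receptor were higher in part. Of 19 genes compared, 7 were higher and none lower, beside 6.77% higher of all genes compared. The 7 were the ligands Hbegf, Tgfa and Btc, the inhibitor Errfi1, the phosphatases Dusp4 and Dusp5, and the receptor Epha2. Btc, betacellulin, stood at 130, 101 and 93.9 CPM in members and 14.5, 14.5 and 16.2 CPM in other cells. Epha2 stood at 49, 52.6 and 52.4 CPM in members and 6.58, 5.8 and 8.86 CPM in other cells. The list's median log2 ratio was 0.91, 0.75 and 0.81, so its typical gene lay below 2-fold.

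Among transcriptional responses, AP-1 and early response genes had 7 of 17 higher and none lower. Fosl1, an AP-1 subunit associated with migrating epithelium, stood at 16, 11.5 and 8.23 CPM in members and 0.539, 0.407 and 0.527 CPM in other cells. Junb, another subunit, stood at 322, 302 and 320 CPM in members and 79.4, 70.4 and 96.6 CPM in other cells. The rapid genes Fos, Fosb, Jun, Atf3 and Egr1 were not called. YAP targets had 7 of 14 higher and Rbms3 lower, with Ctgf at 12.2, 13.8 and 6.14 CPM in members and 1.52, 1.1 and 1.17 CPM in other cells. Of the NF-kB and chemokine list 6 of 12 were higher and none lower, led by Cxcl16 at 152, 170 and 139 CPM in members and 8.11, 7.36 and 11.4 CPM in other cells. Of all genes compared, 6.77% were higher and 6.29% lower. With members chosen after thinning, 3 of 6 genes of the NF-kB and chemokine list were higher and 1 was lower. Of YAP targets 2 of 3 were then higher and none lower.

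Lists of stress genes differed in how many of their genes were higher, beside 6.77% of all genes compared. Hypoxia and glycolysis genes had 7 of 20 higher, NRF2 targets 5 of 14, p53 targets 3 of 17, interferon genes 2 of 5, the unfolded protein and amino acid response 2 of 14 and heat shock genes 2 of 9, with none lower in any of these lists. The shares of the p53 and unfolded protein lists rest on few genes. With members chosen after thinning, heat shock genes had 0 higher and 2 lower of 5, the unfolded protein list 1 higher of 10, and the 1 interferon gene compared was not called. Adm, adrenomedullin, stood at 114, 109 and 113 CPM in members and 7.16, 7.09 and 10.8 CPM in other cells. Hmox1, heme oxygenase, stood at 50.5, 50.7 and 47.5 CPM in members and 6.3, 5.21 and 5.77 CPM in other cells. The cell cycle inhibitor Cdkn1a stood at 415, 495 and 518 CPM in members and 121, 124 and 155 CPM in other cells. The summed heat shock list went the other way, at 3012, 3013 and 2784 CPM in members and 4148, 4236 and 3878 CPM in other cells, although Hspa1a and Hspa1b, whose reads cannot be fully separated, were called higher.

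Genes of shape and attachment were broadly higher. The actin and migration list had 14 of 20 higher and none lower, with median log2 ratios of 1.56, 1.56 and 1.41 in the DMSO reporter, untreated reporter and wild-type libraries. Integrins, laminins and adhesion genes had 7 of 13 higher and none lower. Both counts stand beside 6.77% higher and 6.29% lower of all genes compared. Genes of gut identity differed little, with median log2 ratios of -0.10, 0.00 and 0.19. Of 11 gut transcription factors and adhesion genes compared, 1, the cadherin Cdh17, was higher and none lower. That is 9.09% higher, near the share over all genes compared.

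Members carried less of the crypt programme. Of 14 stem cell genes compared, 9 were lower and none higher, and of 20 proliferation genes 11 were lower and none higher. Both counts stand beside 6.29% lower of all genes compared. Lgr5, the receptor that marks crypt base stem cells, stood at 52.7, 27.2 and 47.5 CPM in members of the DMSO reporter, untreated reporter and wild-type libraries, against 154, 139 and 165 CPM in other cells. Olfm4, the most abundant stem cell transcript here, stood at 572, 381 and 380 CPM in members and 2192, 1853 and 1722 CPM in other cells. Mki67, present in dividing cells, stood at 70.5, 61.3 and 77.7 CPM in members and 166, 183 and 182 CPM in other cells. Its median log2 ratio over the 3 libraries was -1.23, and -0.86 against other cells with UMI totals between the members' quartiles, which is less than 2-fold. A dividing minority remained, since the median member had 3.63, 2.93 and 3.58 UMIs of the proliferation list per 10000 UMIs, while the 90th percentile was 40.9, 38.9 and 42.5. Other cells had medians of 19.4, 21.2 and 18.8 and 90th percentiles of 64.2, 65.5 and 71.1.

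Enterocyte genes gave a split picture. Of 18 compared, Alpi and Apoa1 were higher and none was lower, while Fabp1, a fatty acid carrier of absorptive cells, stood at 570, 533 and 471 CPM in members and 604, 486 and 318 CPM in other cells. Against other cells of like depth, those with UMI totals between the members' quartiles, 5 of 18 were higher, and 5 of 14 with members chosen after thinning. The median cell differed little between the groups, at 8.99, 9.61 and 7.2 UMIs of the list per 10000 UMIs in members and 8.22, 8.52 and 7.03 in other cells, slightly more in members of each library. A subset was rich in it, with 90th percentiles of 145, 165 and 90.2 in members and 35.8, 31.7 and 25.9 in other cells. Genes of the villus tip, where enterocytes are shed, had 4 of 6 higher and none lower. The enterocyte and villus tip counts stand beside 6.77% higher of all genes compared. Krt20, a keratin of mature surface epithelium, stood at 208, 246 and 232 CPM in members and 25.2, 23.4 and 45 CPM in other cells. The adenosine deaminase Ada was called higher, but in the wild-type library 1 member held 43.5% of its UMIs, and the log2 ratio without that member was 0.21.

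Secretory genes require reading by cell. Of 21 enteroendocrine genes compared, 20 were lower and none higher, but against other cells of like depth 7 of 18 were lower, and 11 of 13 with members chosen after thinning. Gip stood at 10, 12 and 3.74 CPM in members and 547, 359 and 205 CPM in other cells. The median cell had almost none of this list in any group, at 0.554, 0.681 and 0.801 UMIs per 10000 in members and 0.653, 0.674 and 0.827 in other cells. Tuft genes were lower in 8 of 9, but in 0 of 3 against other cells of like depth. Goblet genes were mixed, with 1 of 14 higher and 2 lower. The higher one, Clca1, a secreted metalloprotease-like protein of mucus, stood at 136, 257 and 173 CPM in members and 5.02, 7.62 and 12.9 CPM in other cells, yet only 7.59%, 6.67% and 8.11% of members had a UMI of it. The mucin Muc2 stood at 48.2, 29.5 and 76.6 CPM in members and 35.3, 38.3 and 59.4 CPM in other cells. Paneth genes had 1 of 10 lower and none higher. All these counts stand beside 6.77% higher and 6.29% lower of all genes compared. The goblet and Paneth counts, of 1 or 2 genes, therefore do not set those lists apart.

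Several defining markers of connective tissue, blood and vessel cells had 0 UMIs in members, while some stomach genes were higher. No filtered cell of these 3 libraries had 2 UMIs of 3 mesenchymal, immune or endothelial and glial markers, which allows a share of members meeting such a rule of up to 2.31%, 2.7% and 0.992% (upper 95% exact limits). That limit covers cells that meet the rule, not cells of these types. Col1a1, Col3a1, Pdgfra, Cd3e, Tyrobp, Cdh5 and Kdr had 0 UMIs in members. Only 6 of 10 mesenchymal, 8 of 10 immune and 5 of 8 endothelial and glial genes were listed for any of the 3 libraries. Many zeros of these lists thus hold for other cells too and do not set members apart. The summed immune list was 12.6, 10.1 and 13.6 CPM in members and 3.05, 2.53 and 3.14 CPM in other cells, mostly through Cd68, which lysosomes of other cells also contain, and the part of immune RNA in the results was not tested. Among M cell genes Ccl20, Anxa5 and Clu were higher, while Gp2 and Sox8, which define those cells, had 0 UMIs in members. For Ccl20, 1 member held 35.3%, 25.9% and 38.4% of the members' UMIs. A UMI of it was seen in 14.6%, 10.4% and 4.05% of members, against 5.47%, 4.47% and 3.37% of other cells. Gp2 had 0 UMIs in other cells too, so its absence does not set members apart. The same rule for M cell markers was met by 22.8%, 22.2% and 22.4% of members and 2.72%, 2.33% and 5.56% of other cells. After thinning it was met by 3.55%, 5.17% and 2.57% of members and 0.142%, 0.167% and 0.33% of other cells. Among stomach genes Cldn18 and Anxa10 were higher and Gkn3 was lower, while Gkn1, Gkn2, Muc5ac and Muc6 had 0 UMIs in members. Only 10 of the 12 stomach genes were listed for any of the 3 libraries. Cldn18 was seen in only 3.16%, 2.96% and 2.7% of members, and 1 member held 46.4%, 41.7% and 45.5% of the members' UMIs of it. Without that member its log2 ratio was 5.93, 2.78 and 2.69. The summed stomach list was 194, 152 and 112 CPM in members and 38.7, 33.7 and 28.2 CPM in other cells. Anxa10 stood at 150, 138 and 45.2 CPM in members and 2.38, 2.01 and 1.63 CPM in other cells.

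The same form of rule was applied to markers of other cell types, 2 UMIs of at least 3 genes, after thinning to 5000 UMIs. Stem cell rules were then met by 7.8%, 3.45% and 6.57% of members, against 39.4%, 34.9% and 37.9% of other cells. Enterocyte rules were met by 31.2%, 30.2% and 21.4% of members, against 12.6%, 13.2% and 10.2% of other cells, and villus tip rules by 10.6%, 9.48% and 8.57%, against 0.605%, 0.394% and 0.77%. Without thinning, 34.2%, 27.4% and 37.3% of members met the stem rule, against 69.2%, 66.5% and 68.1% of other cells. For the enterocyte rule the unthinned shares were 66.5%, 65.9% and 54.1% of members, against 50.4%, 48.6% and 47.9% of other cells. Another set of rules, without villus tip, covered stem, proliferation, enterocyte, goblet, Paneth, tuft and enteroendocrine markers. With all UMIs, 17.7%, 17% and 20% of members met none of that set, against 5.46%, 5.86% and 6.88% of other cells.

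Levels of the fetal and regenerative list and of stem genes changed gradually across the rule's line. They are summed over cells, and whether single cells are graded or a mixture of high and low cells was not tested. Cells with 2 rule genes, just outside it, numbered 181, 170 and 379, and those with 3, just inside, numbered 85, 76 and 151. Just inside, the fetal and regenerative list stood at 7995, 7308 and 8276 CPM, against 4988, 5306 and 5990 CPM just outside and 1382, 1478 and 1671 CPM in cells with no rule gene. In cells with all 6 it stood at 22762, 17515 and 21280 CPM, and in the untreated reporter library it was higher still in cells with 5, at 20324 CPM. Stem genes ran the other way, at 3722, 3263 and 3388 CPM with no rule gene, 1319, 980 and 999 CPM with 3, and 812, 285 and 775 CPM with 6. The cells with 6 rule genes were also the deepest, with medians of 21244, 20388 and 19268 UMIs.

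Enterocyte genes did not follow that line. They peaked at 9289, 6805 and 4625 CPM in cells with 1 rule gene and stood at 1114, 1153 and 2238 CPM in cells with 5. In the untreated reporter library cells with 4 rule genes still had 6753 CPM. The level with 5 rule genes was below the 1942 and 1978 CPM of cells with no rule gene in the DMSO and untreated reporter libraries, where 20 and 22 cells had 5, and above the 1311 CPM of such cells in the wild-type library. The goblet list had 6969, 5403 and 5051 CPM in cells with 3 rule genes and 447, 456 and 5685 CPM in cells with 6, and the last group held 16, 7 and 39 cells.

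**Figure D4:**
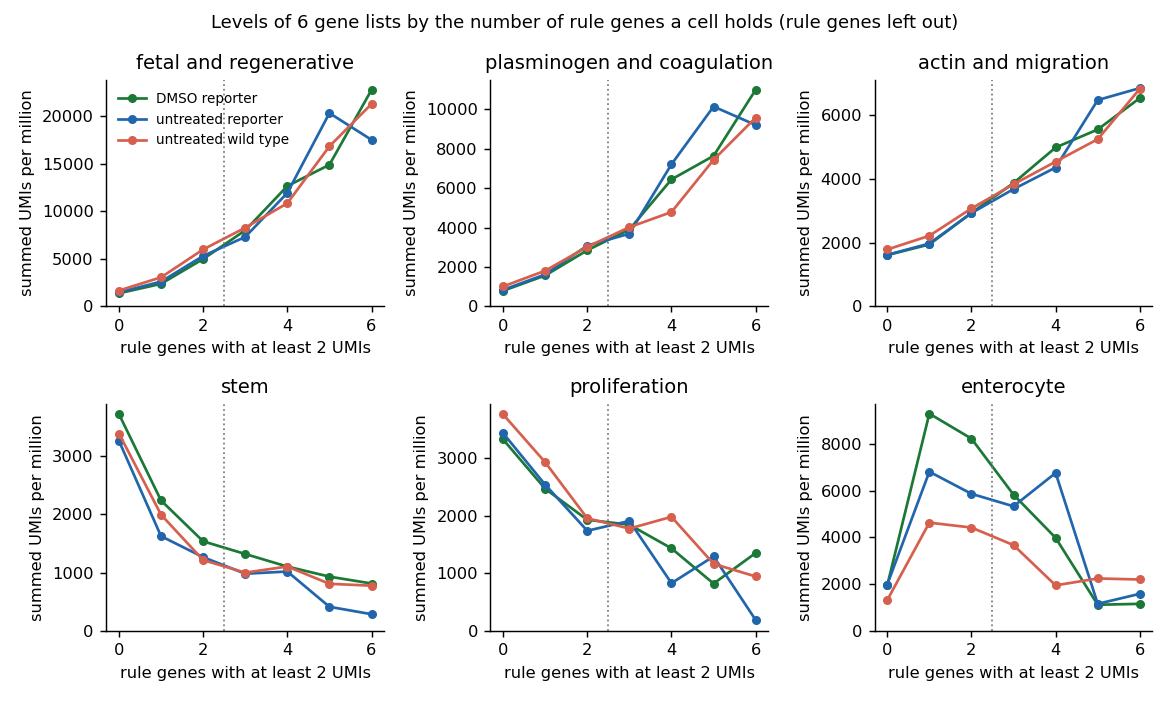
Summed CPM of 6 gene lists, without rule genes, in cells grouped by how many rule genes had at least 2 UMIs (members lie right of the dotted line). The fetal, plasminogen and actin lists are higher in cells with 6 rule genes than in cells with none and the stem and proliferation lists are lower, though not at every step, and the enterocyte list peaks in cells with 1 rule gene.

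Members with Ly6d differed from those without it, a split chosen after the values were seen and described without a test. There were 31, 25 and 139 members with at least 2 UMIs of Ly6d, and 127, 110 and 231 without. The fetal and regenerative list stood at 18592, 17082 and 16795 CPM in members with Ly6d and at 9955, 10148 and 9971 CPM in those without. Ly6a stood at 1135, 1108 and 1166 CPM with Ly6d and 317, 306 and 472 CPM without. The members with Ly6d had both at similar levels in each library, above those without it. Enterocyte genes stood at 2341, 2770 and 2215 CPM with Ly6d and 4715, 5013 and 2963 CPM without, and Clca1 at 19.1, 0 and 51.3 CPM with Ly6d and 171, 337 and 250 CPM without. Median depths were 20012, 18629 and 16724 UMIs with Ly6d and 14941, 14630 and 16861 UMIs without, so in the wild-type library the 2 sets were of similar depth. The members with Ly6d included all 16, 7 and 39 cells with 6 rule genes. Those without it included the 34, 33 and 49 cells with Plaur, F3 and Areg alone. These lists also changed with the number of rule genes, so a part of Ly6d itself cannot be told apart from that number.

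Members lay close to one another in expression space. Among the 15 nearest cells of a member, found in 30 principal components of 2000 variable genes without the 6 rule genes, 52%, 42.2% and 50.6% were members on average. Among the 15 nearest cells of other cells the mean was 0.67%, 0.709% and 1.6%, and members were 1.76%, 1.4% and 4.23% of each library. When the 671 genes higher in members were left out as well, the mean for members was 30.3%, 24.8% and 34.6%. Cells with 6 rule genes had 92.5%, 81% and 91.5% members among their neighbours, and cells with 3 had 34.7%, 27.3% and 29.9%. A scattered part remained, since 15, 12 and 33 members had no other member among their 15 nearest cells.

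**Figure D5:**
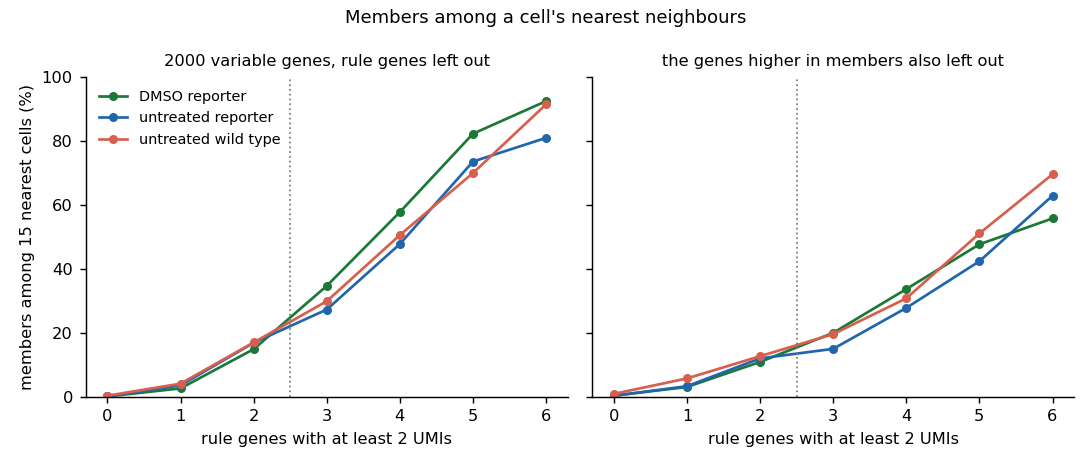
Mean percent of members among the 15 nearest cells, by the number of rule genes a cell held, with rule genes left out of the distances (left) and with the 671 genes higher in members also left out (right). The percentage is larger in cells with more rule genes in each library, and cells with 6 reach 92.5%, 81% and 91.5% on the left and 55.8%, 62.9% and 69.6% on the right.

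Wild-type members were not identical to reporter members. Ly6a was high in other cells of the wild-type library too, at 21.2 CPM, against 4.07 and 5.87 CPM in the reporter libraries, and its ratio in members was correspondingly the lowest of the 3. Across the comparison no gene was at least 2-fold higher in members of one library and at least 2-fold lower in those of another. Differences of degree were seen. Pmp22, a myelin and epithelial junction protein, stood at 18.6, 38.7 and 92.8 CPM in members of the DMSO reporter, untreated reporter and wild-type libraries. In other cells it stood at 0.185, 0.133 and 2.5 CPM. Sprr2f stood at 29.3, 50.3 and 1.95 CPM in members and 0.659, 0.853 and 0.124 CPM in other cells. For both genes the wild-type library thus stood apart outside members too. Sprr2f was found in only 2.53%, 2.22% and 0.811% of members, so few cells carried it. A single member in each library held 46.8%, 80.7% and 76.9% of the members' Sprr2f UMIs, and wild-type members had 13 UMIs. Its levels thus do not show a difference between members of the libraries.

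In the Isx-9 library the rule found 105 of 10016 cells, 1.05% (0.858% to 1.27%), against 1.76% in the DMSO reporter library. After thinning to 5000 UMIs the shares were 0.199% with Isx-9 and 0.949% with DMSO. With 1 UMI of each rule gene the order turned, to 3.59% (3.24% to 3.98%) with Isx-9 and 3.52% (3.15% to 3.93%) with DMSO, with overlapping intervals. Areg qualified most cells of both libraries, in 94.3% of Isx-9 members and 95.6% of DMSO members, but the genes beside it differed. Ly6d, Anxa1 and Areg alone qualified 41.9% of Isx-9 members. Anxa1 did so in 97.1% of Isx-9 members and 41.8% of DMSO members, and F3 in 23.8% of Isx-9 members and 81.6% of DMSO members. Outside members, Anxa1 stood at 49.3 CPM with Isx-9 and 1.76 CPM with DMSO, so a cell met that part of the rule more easily with Isx-9. Clu stood at 2624 CPM in Isx-9 members and 369 CPM in other cells of that library, against 96.1 CPM in DMSO members and 6.29 CPM in their other cells. Sprr1a, Plat and Il1rn went the other way, at 109, 26.9 and 12 CPM in Isx-9 members and 760, 102 and 132 CPM in DMSO members. The cells that met the rule with Isx-9 and with DMSO were thus selected by different mixes of genes, with Areg in common. With 1 library each the difference was not tested.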

How the data were processed

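The single-cell matrices hold UMI counts per gene and cell, which the authors deposited without normalization. Per the submitters' processing notes, which give tools without their order, they come from Cell Ranger 3.1.0 and Seurat 3.1.5 on GRCm38. Every gene of these matrices had UMIs in at least 3 cells. The bulk RNA-seq and ATAC-seq data of the series were not used here. Each matrix was filtered and scored by itself, without clustering or batch correction, in Python 3.11.15 with scanpy 1.11.5. The 6 rule genes were left out of all lists and gene comparisons. UMIs were summed over members and over other cells and scaled to a total of 1000000 (CPM). A sum of 0 was set to 3 counts for a log2 ratio. Intervals are exact at the 95% level: Clopper-Pearson for shares and conditional binomial for ratios. They treat UMIs as independent, so they are too narrow for genes held by few cells. No doublets were removed. The genes named are the rule genes, the 20 highest and 12 lowest ratios (ranked by the library nearest to no difference, without Gm and Rik genes and mitochondrial and ribosomal protein genes), up to 4 genes called in each of 16 programme and 13 marker lists, and 14 genes kept whatever their result; others named were chosen after their values were seen. Some of these genes are not reported here. The members, gene lists and comparisons were chosen with earlier results of these data known.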

Additional observations from a re-analysis of the deposited data

Results flagged for a closer look

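For 5 of the 95 named genes with UMIs in both groups of the Isx-9 library and more than 3 observed or expected in its members, the difference between members and other cells ran one way in all 3 libraries without Isx-9 and the other way in the Isx-9 library, at least 2-fold in each. The differences between libraries were not tested. Krt20 had a log2 ratio of -1.07 with Isx-9 (18.2 CPM in members and 38.2 CPM in other cells), against 3.05 with DMSO. Apoa1 had -1.69 with Isx-9, from 4 UMIs in members, against 1.88 with DMSO. Dusp4 had -1.02 with Isx-9, against 2.37 with DMSO. The tuft gene Dclk1 had 1.85 with Isx-9 (30.7 CPM in members and 8.54 CPM in other cells), against -2.99 with DMSO. Gng13 had 1.16 with Isx-9, from 22 UMIs in members, against -3.02 with DMSO. Members of the Isx-9 library had a median of 17788 UMIs, against 9304 UMIs in its other cells, and the part of that depth gap in these ratios was not tested. In the 3 libraries without Isx-9, with members chosen after thinning, the median log2 ratio was -0.06 for Gng13 and -1.46 for Dclk1, and against other cells of like depth it was -1.27 and -1.41.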

How the results depend on the processing

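Shares moved with the rule's strictness, in the order Isx-9 reporter, DMSO reporter, untreated reporter and wild type. With 1 UMI per rule gene they were 3.59%, 3.52%, 3.04% and 8.27%, with 3 UMIs 0.509%, 1.13%, 0.916% and 3.1%, with 4 or more rule genes 0.25%, 0.814%, 0.614% and 2.5%, and after thinning 0.199%, 0.949%, 0.589% and 2.51%. The wild-type library was highest in each, and the Isx-9 library exceeded the DMSO library with 1 UMI per rule gene. Shares stayed within their intervals with 3000 UMIs per cell, with 10% mitochondrial UMIs and, an alternative chosen after seeing the data, without the top 10% of Scrublet scores. The Isx-9 share did so too without its 831 Scrublet calls, at 0.991%. In the other libraries Scrublet marked 0, 0 and 1 cells, so leaving out its calls could not move their shares and says nothing about doublets. Genes higher in members numbered 449 to 732 under the other settings. Genes lower fell to 357 with both groups thinned, 320 with members chosen after thinning and 333 with a minimum of 30 UMIs, settings under which fewer genes were compared, and numbered 869 with means over cells. Leaving out each library gave 757 to 774 higher and 792 to 820 lower genes. List genes higher numbered 97, against 102 and 74 with depth-matched other cells and with members chosen after thinning. Neighbour shares moved only without the genes higher in members (30.3%, 24.8% and 34.6%). No named gene called reversed its direction under 3 alternatives, 1 of which, leaving out each gene's top member, was chosen after seeing the data and ended the call of Ada. No paired analysis was possible because each single-cell condition had 1 library and no result comes from a test. Depth limits genes with few UMIs.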

Other observations

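Many of the highest genes were neighbours on chromosome 15, which was seen after the values. The stretch from Psca to Gpihbp1 (GRCm38.p6, positions 74714839 to 75598213) holds 29 protein-coding genes, among them the rule gene Ly6d and other genes of GPI-anchored Ly6 and uPAR-like proteins. Of these other genes, 18 had too few UMIs to be compared and 10 had enough UMIs to be compared, and 8 were higher in members and none lower, beside 6.77% of all genes compared. Those 8 were Psca, Lynx1, Gml, Gml2, 2010109I03Rik (Ly6m), Ly6a, Ly6c1 and Ly6g. The exceptions were Ly6e, at 124, 119 and 103 CPM in members of the DMSO reporter, untreated reporter and wild-type libraries and 91.6, 98.2 and 66.5 CPM in other cells, and Them6. Gml2, a GPI-anchored molecule-like gene, stood at 16, 16.1 and 11.1 CPM in members and 0.362, 0.383 and 0.411 CPM in other cells. Genes such as these could be compared only by being high in members.

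The epidermal differentiation complex on chromosome 3, which holds Sprr1a, gave a like count. Between S100a1 and S100a10 (positions 90511034 to 93564645), the annotation holds 70 protein-coding genes, of which 56 had too few UMIs to be compared. Of the 13 compared other than Sprr1a, 11 were higher and none lower, beside 6.77% higher and 6.29% lower of all genes compared. Sprr2a1, Sprr2b, Sprr2f and Crct1 are among them, and genes so nearly absent from other cells could be compared only by being high in members. S100a6, a calcium-binding protein of the cell cortex, was the most abundant, at 2360, 2204 and 2868 CPM in members and 51.4, 56.2 and 143 CPM in other cells. S100a14 stood at 518, 580 and 558 CPM in members and 27.7, 30.7 and 47.6 CPM in other cells. S100a1 and S100a5 were not called.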
